A study of Mus musculus with 4 samples.

Results

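Genes of the basement membrane and the vascular extracellular matrix, 35 in all, are described in single cells sorted from the adult mouse dentate gyrus. They were chosen by name, and all 35 were found among the 31557 gene symbols of the count table. They comprise 5 fibrillar collagen chains, 2 type IV, 2 type VI and 2 multiplexin collagen chains, 6 laminin chains, 2 nidogens, 2 heparan sulfate proteoglycans, 3 matrix glycoproteins, 3 small leucine-rich proteoglycans, 2 fibulins, 2 inhibitors of proteolysis and calcification, and 4 genes of collagen synthesis and cross-linking. Their levels were followed across cell classes and across 2 treatments, with the mouse as the replicate.

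All 8 mice were males carrying a nestin-GFP reporter, in which nestin regulatory sequence marks neural stem and progenitor cells and also labels vascular and some glial cells. Mice 2, 4, 6 and 8 received an antagomir against miR-132 in the cerebral ventricle, a locked nucleic acid oligonucleotide modified with cholesterol, given as 2 µl at 0.33 nmol/ml. Mice 1, 3, 5 and 7 received a scrambled oligonucleotide, at a dose that the sources used here do not give. Injection was at 2 months and analysis at 3 months of age. The dentate gyrus of both hemispheres was dissociated, 96 GFP-positive cells per mouse were sorted into wells, and each cell was sequenced by Smart-seq2, a full-length method primed with oligo-dT and without molecular identifiers, so that reads and not molecules were counted. Mature miR-132 was not measured. The labels list 2 samples per treatment that could not be tied to single mice, and the deposited well table names the mouse of every well. Mice 1 to 4 were sorted on 1 day and mice 5 to 8 on another. Every sort day, like every sequencing pool, had 2 mice per treatment.

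The limits of 500 to 6000 detected genes left 716 of 768 wells, with 353 of antagomir and 363 of scrambled mice. The median over these wells was 650777 counts and 2778.5 genes, and the wells of a mouse summed to between 43996495 and 69191485 counts. Clustering was done without the 35 genes and without related matrix genes, and clusters were named from marker genes that hold no matrix gene. This gave 82 mural-like wells (11.5%; 6 to 14 per mouse), 87 endothelial-like wells (12.2%; 3 to 19 per mouse) and 12 fibroblast-like wells (1.68%; 0 to 3 per mouse). The other wells were 169 RGL (radial glia-like) or astrocyte-like, called astrocyte-like below, 302 oligodendrocyte-like and 25 neuroblast-like, and 39 wells led by Ccnd2, Ptprz1, Thrsp and Fabp7 stayed unnamed. In mural-like wells 13 of 17 mural markers, in endothelial-like wells 15 of 15 endothelial markers and in fibroblast-like wells 13 of 17 fibroblast markers were detected. One astrocyte-like cluster of 38 wells had a median of 11.5% mitochondrial counts and 858.5 genes. No doublet caller was run. At least 3 markers of both the mural and the endothelial list, at 10 or more counts, were held by 10 of 82 mural-like and 3 of 87 endothelial-like wells, and 18 of 82 mural-like and 9 of 12 fibroblast-like wells held at least 3 markers of both the mural and the fibroblast list. At least 3 markers of both the endothelial and the fibroblast list were held by 2 of 12 fibroblast-like and 0 of 87 endothelial-like wells.

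A basement membrane is a thin sheet of matrix on which endothelial cells sit and within which pericytes are enclosed. Its core is a network of type IV collagen and a network of laminin trimers, joined by nidogens and filled with the heparan sulfate proteoglycans perlecan (Hspg2) and agrin (Agrn). Outside it, fibroblasts of larger vessels and meninges lay down fibrillar collagens, which small leucine-rich proteoglycans such as decorin (Dcn) bind and which enzymes such as Pcolce, Serpinh1 and the lysyl oxidases help to process, fold and cross-link. In the brain this matrix lies between vessels and astrocyte endfeet, and in neurogenic niches stem cell processes touch it.

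The miRNA that was targeted and its places in these transcripts are shown first, because they define which of the 35 genes carry a match to it. Mature sequences are from RefSeq (GRCm38.p6), with the seed, bases 2 to 8, in capitals. Mouse miR-132-3p lies at chr11:75173723-75173744 (+) and miR-212-3p, its neighbour with the same seed, at chr11:75173443-75173464 (+).
miR-132-3p: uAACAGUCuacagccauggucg
miR-212-3p: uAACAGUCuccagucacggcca
The reverse complement of the seed, GACTGTT, was searched on the transcript strand in the longest annotated 3′ UTR of each gene (GENCODE M21, GRCm38). It was present in 3 of the 35 genes (8.57%), against 2356 of 21153 genes with a 3′ UTR (11.1%). The median 3′ UTR was 966 bases for the 35 genes and 1084 bases for all genes. Each site is printed with its match in capitals, at chr11:94952166-94952188 (+) for Col1a1, chr1:45376011-45376033 (−) for Col5a2 and chr13:13511267-13511289 (+) for Nid1.
Col1a1: ggttcttgGACTGTTgaaggaac
Col5a2: agaactgtGACTGTTtaaagttc
Nid1: gtttgaggGACTGTTgctgcctt
A match of letters describes the sequence and does not show that the miRNA binds there.

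Col4a1 and Col4a2, the core chains of type IV collagen, are transcribed head to head, and their annotated start sites in RefSeq (GRCm38.p6) lie 21 bases apart on opposite strands. The window of 300 bases around the start of Col4a2, chr8:11312555-11312854 (+), is shown because it holds both starts. Capitals mark GGGCGG, which on the other strand reads CCGCCC, and CCAAT. Both of these and TATAAA were searched on both strands.
Col4a2 promoter: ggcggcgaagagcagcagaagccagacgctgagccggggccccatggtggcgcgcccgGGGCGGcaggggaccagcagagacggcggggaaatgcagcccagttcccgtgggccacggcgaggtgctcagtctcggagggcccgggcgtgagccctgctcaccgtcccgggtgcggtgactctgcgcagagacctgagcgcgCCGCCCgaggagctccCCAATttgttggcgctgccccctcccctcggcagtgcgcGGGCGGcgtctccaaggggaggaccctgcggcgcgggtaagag
This window held GGGCGG 3 times, CCAAT 1 time and TATAAA 0 times. RefSeq promoter windows of 300 bases were available for 24 of the 35 genes. GGGCGG was found in those of 18 genes (75.0%), against 35.7% of 32851 windows in the table, CCAAT in 7 (29.2%, against 37.4%) and TATAAA in 2 (8.33%, against 13.6%). Matches of different motifs could share letters, and a gene with several windows was counted once if any of them held the motif.

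Across the 7 classes these genes were mainly counted in vascular and fibroblast-like wells. Levels are given as CPM, counts scaled to the total of the class, and, where genes are compared with one another, as CPM per kilobase of exon (CPM per kb), since longer transcripts give more reads. The highest CPM was in fibroblast-like wells for 19 genes, in mural-like wells for 11, in endothelial-like wells for 4 and in neuroblast-like wells for 1, Col5a1, which had 1 count there. At 10 counts or more, 18 genes were found in the majority of fibroblast-like wells, 10 in the majority of mural-like, 6 of endothelial-like, 3 of unnamed and 1 of astrocyte-like wells, and none of the 35 in the majority of oligodendrocyte-like or neuroblast-like wells. These are descriptions of classes with 12 to 302 wells, and they rest on the pooled wells of each class.

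**Figure D1:**
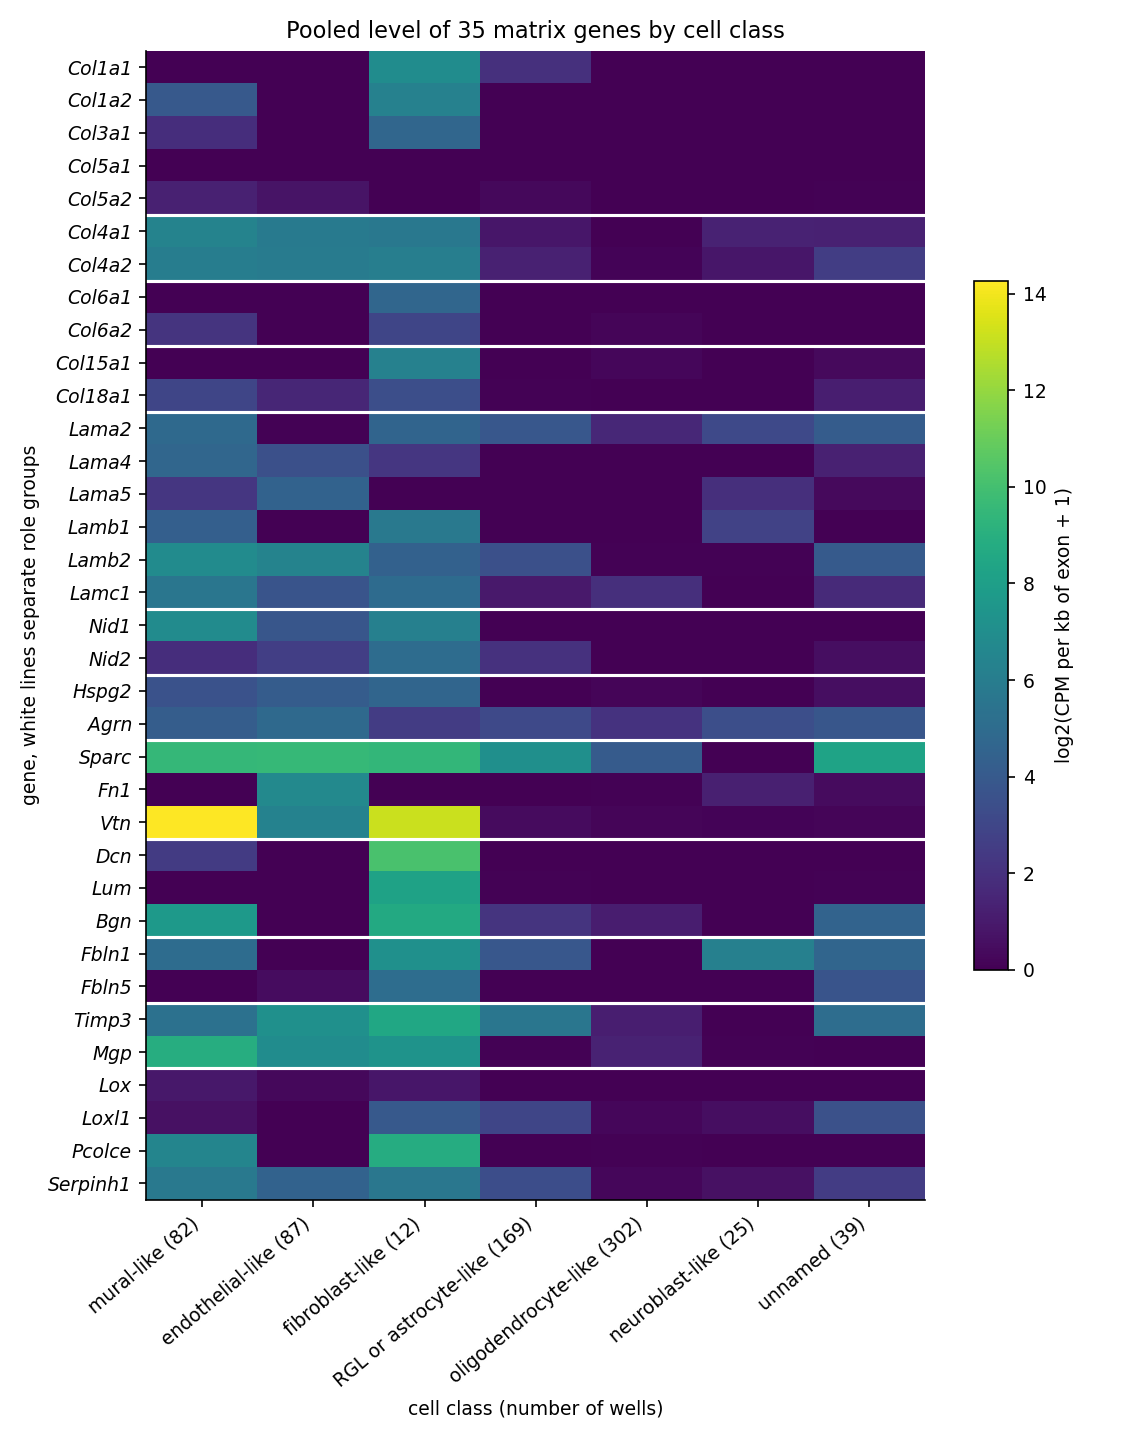
Heat map of log2(CPM per kb of exon + 1), pooled over the wells of a class, for the 35 genes in rows ordered by role and the 7 cell classes in columns. Brighter colours mark higher levels and sit mostly in the mural-like, endothelial-like and fibroblast-like columns. Vtn is brightest in mural-like wells, and Sparc is the gene that reaches furthest into the astrocyte-like, unnamed and oligodendrocyte-like columns.

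Each vascular class had its own leading genes per length. In mural-like wells these were Vtn (vitronectin, an adhesive glycoprotein that binds integrins) at 19700 CPM per kb, Sparc (a collagen-binding secreted protein) at 739, Mgp (matrix Gla protein, an inhibitor of calcification) at 473, Bgn (biglycan, a small leucine-rich proteoglycan) at 208 and Nid1 (nidogen, which links laminin to type IV collagen) at 118. In endothelial-like wells they were Sparc at 754 CPM per kb, Timp3 (an inhibitor of metalloproteinases held in the matrix) at 141, Mgp at 120.5, Fn1 (fibronectin) at 104 and Lamb2 (the laminin β2 chain) at 81.2. Mgp was found, however, in only 6.90% of endothelial-like wells, against 45.1% of mural-like wells (10 counts or more). In fibroblast-like wells they were Vtn at 8966 CPM per kb, Dcn at 1174, Sparc at 706, Pcolce (an enhancer of procollagen processing) at 456 and Bgn at 409.

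Glial and neuronal classes had far lower levels and another order. Sparc led in astrocyte-like wells at 136.6 CPM per kb, followed by Timp3 at 47.1, Lama2 (the laminin α2 chain) and Fbln1 at 13.9 each, and Lamb2 at 10.2. Sparc also led in oligodendrocyte-like wells at 16.0 CPM per kb, followed by Agrn at 3.32, Lamc1 (the laminin γ1 chain) at 2.73, Lama2 at 2.02 and Mgp at 1.56. Fbln1 led in neuroblast-like wells at 73.5 CPM per kb, with Agrn at 9.74, Lama2 at 7.96, Lamb1 at 5.94 and Lama5 at 2.84. In the 39 unnamed wells Sparc had 314 CPM per kb, Timp3 33.2, Fbln1 24.1, Bgn 22.6 and Lama2 16.9. Sparc had 0 counts in the 25 neuroblast-like wells, which allows up to 0.218 CPM, as set by 3 counts of the class total.

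Some genes were at 0 in a whole class. Col1a1, Col5a1, Col6a1, Col6a2, Col15a1, Fbln1, Loxl1 and Pcolce had no count in the 87 endothelial-like wells, which allows up to 3.45% of wells with a count and 0.0616 CPM each. Fbln5 (an elastic fibre protein) had none in the 82 mural-like wells, which allows up to 0.0695 CPM. In the 12 fibroblast-like wells Col5a1, Col5a2, Lama5 and Fn1 had none, which with so few wells allows up to 25% of wells and 0.357 CPM. Astrocyte-like wells lacked 3 of the 35 genes, oligodendrocyte-like wells 4, neuroblast-like wells 21 and unnamed wells 10. Such limits cover counting error only.

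The 12 fibroblast-like wells came from 7 of the 8 mice, too few per mouse for a test, and their values are given by well. They all held the fibroblast markers Pdgfra (807 CPM pooled), Slc6a13 (5094 CPM) and Igf2 (9318 CPM), and the mural markers Abcc9 and Higd1b and the endothelial marker Flt1 were at 0 in them. The mural marker Pdgfrb, however, had 10 or more counts in 11 of the 12 wells (439 CPM pooled) and Kcnj8 in 3 (113 CPM), and 9 of the 12 held at least 3 mural markers. The part of mural RNA in the values of these wells was not tested. Col1a1, the main chain of type I collagen, ran from 287 through a median of 625.5 to 1458 CPM and was present in 12 of 12 wells. Its partner Col1a2 ran from 0 through 872.6 to 4146 CPM and was present in 11 wells. Type I collagen chains were thus counted together in most of these wells, whereas mural-like wells pooled had 185 CPM of Col1a2 and 0.0232 CPM of Col1a1.

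The proteoglycans and collagen-processing genes of these wells were also high. Dcn ran from 1171 through a median of 5541 to 18830 CPM per well, and Bgn from 185.5 through 1718 to 12680 CPM. Lum (lumican, which like Dcn regulates collagen fibrils) ran from 0 through 480 to 3165 CPM and was found in 8 wells. Pcolce ran from 444 through 1338 to 4110 CPM, Timp3 from 248.6 through 2401 to 5336 CPM, and Vtn from 2524 through 17180 to 46640 CPM. The basement membrane genes Lamb1 and Nid1 were found in 9 of the 12 wells each, Hspg2 in 10 and Col15a1 (a multiplexin collagen at basement membranes) in 9, at 10 counts or more. Fibronectin was at 0 in these 12 wells.

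Mural-like wells were set against endothelial-like wells of the same mice to see how the 2 cell types of the vessel wall share its matrix. Laminins α2 and β1, nidogen 1, vitronectin, biglycan, Col1a2 and Pcolce were higher in mural-like wells, and fibronectin was higher in endothelial-like wells. The type IV collagen chains and Sparc were counted in both classes and did not pass the test. Counts were summed per mouse and class in the 7 mice with at least 5 wells of each, and tested with edgeR's quasi-likelihood test with the mouse as a block and Benjamini-Hochberg adjustment over 6780 genes, with a call at an adjusted p of 0.05 or less. Of the 22 members that passed the filter on low counts, 7 were higher and 1 was lower in mural-like wells, against 4.14% of all genes tested higher and 4.62% lower. The median log2 difference was 1.36 over the 22 and 0.03 over all genes. An unadjusted p under 0.05 was found for 11 of the 22, and for 514 higher and 581 lower of the 6780 genes. The filter admits a gene that is counted in 1 class alone, so these counts describe genes that were counted at all in 1 of the classes. Fn1 had 2 counts in mural-like wells, and Lamb1 had 1, Bgn 4 and Pcolce 0 in endothelial-like wells. For such genes the filter fixes the direction, so their adjusted p-values below are descriptions. The other 13 (Col1a1, Col3a1, Col5a1, Col5a2, Col6a1, Col6a2, Col15a1, Dcn, Lum, Fbln1, Fbln5, Lox and Loxl1) did not pass the filter.

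The glycoproteins gave the plainest contrast. Vtn ran from 32390 through a median of 41680 to 56680 CPM in mural-like wells, against 0 through 1.76 to 1418 CPM in endothelial-like wells of the same 7 mice. The classes did not overlap. Pooled over the mice, the Vtn level was 235-fold higher in mural-like wells (230 to 240, exact 95% interval for counting error only; edgeR adjusted p = 0.0010). Mouse 5 held 6661 of the 7993 Vtn counts of the endothelial-like wells, and without it the fold was 1183 (1122 to 1250). Fn1, which was at 0 in 5 of the 7 mice in mural-like wells and had 2 counts there in all, reached at most 0.159 CPM, against 736 through 1169 to 1680 CPM in endothelial-like wells. Fn1 levels did not overlap either (edgeR adjusted p = 2.9e-06). Sparc averaged 2764 ± 521 CPM in mural-like and 2827 ± 602 CPM in endothelial-like wells (SD, n = 7 mice), a log2 difference of -0.07 with a 95% interval of -0.71 to 0.58, and did not pass the test.

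Among the laminins, which form the network that cells bind, the chains differed. Lamb1 (β1) ran from 2.87 through 192 to 439 CPM in mural-like wells, against 0 through 0 to 0.0890 CPM in endothelial-like wells, where the 7 mice had 1 count in all (ratio 9848, counting interval 1767 to 389000; edgeR adjusted p = 0.0002). Lama2 (α2) ran from 298 through 415 to 702 CPM in mural-like wells, against 0 through 0 to 12.8 CPM in endothelial-like wells (330-fold, 257 to 432; edgeR adjusted p = 0.0006). Without mouse 5, 1 of the 61 endothelial-like Lama2 counts was left, and the ratio was 18790 (3371 to 742000). Neither chain overlapped between the classes. Lama5 (α5, the chain of mature endothelial basement membranes) averaged 49.3 ± 62.8 CPM in mural-like and 194 ± 105 CPM in endothelial-like wells, and Lama4 (α4, also of vessels) 335 ± 75.8 and 111 ± 94.8 CPM, and neither passed the test. Lamb2 averaged 725 ± 366 CPM in mural-like and 469 ± 228 CPM in endothelial-like wells and Lamc1 363 ± 203 and 61.6 ± 68.7 CPM (log2 difference 3.995, edgeR adjusted p = 0.281), so that 2 of 6 laminin chains were called. Lamc1 was higher in mural-like wells in 7 of 7 mice, but its ranges overlapped.

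**Figure D2:**
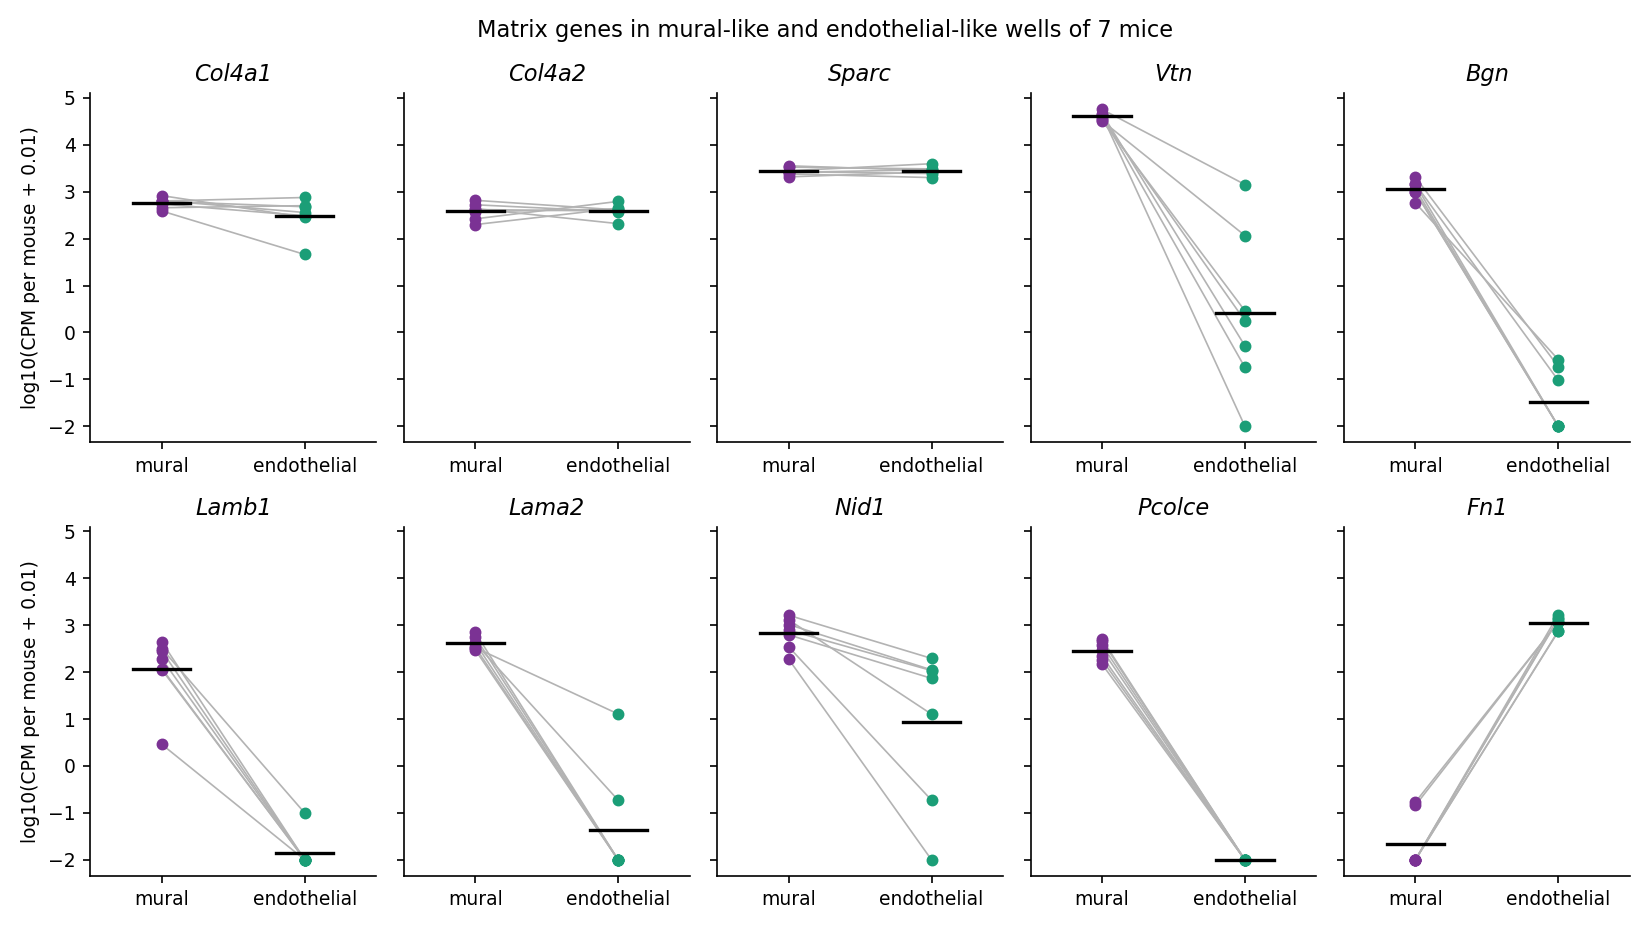
CPM per mouse on a log10 axis (0.01 added) for 10 genes, with mural-like wells at the left and endothelial-like wells at the right of each panel, a line joining the 2 values of a mouse (7 mice) and bars at the mean of the logs. Vtn, Bgn, Lamb1, Lama2 and Pcolce fall steeply towards endothelial-like wells in every mouse, Fn1 climbs steeply, and Col4a1, Col4a2 and Sparc stay level or cross.

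Nidogen and the type IV chains were counted in both classes. Nid1 ran from 189 through 784 to 1624 CPM in mural-like wells, against 0 through 73.5 to 196 CPM in endothelial-like wells. It was higher in mural-like wells in 7 of 7 mice, although the lowest mural-like and the highest endothelial-like value overlapped (log2 difference 5.005, edgeR adjusted p = 0.0290). Col4a1 ran from 386 through 620 to 822 CPM in mural-like wells, against 45.8 through 359 to 751 CPM in endothelial-like wells, with 5 of 7 mice higher in mural-like wells (log2 difference 0.80, 95% interval -0.40 to 1.99). Col4a2 ran from 199 through 415 to 654 CPM in mural-like wells, against 208 through 408 to 620 CPM in endothelial-like wells (log2 difference -0.06, interval -1.17 to 1.06). Neither type IV chain passed the test, and the ranges overlapped almost in full for Col4a2. On the log2 scale the intervals still allow a difference of up to 1.99 for Col4a1 and of about 1 either way for Col4a2. The proteoglycans Hspg2 (142 ± 70.9 in mural-like and 239 ± 163 CPM in endothelial-like wells) and Agrn (122 ± 96.1 and 258 ± 165 CPM) did not pass the test.

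Of the collagen-binding and fibrillar genes, Bgn, Pcolce and Col1a2 passed the test, while most of the others were not tested. Bgn ran from 575 through 1159 to 2026 CPM in mural-like wells, against 0 through 0 to 0.254 CPM in endothelial-like wells, where it had 4 counts in all (edgeR adjusted p = 4.9e-06). Pcolce ran from 148 through 302 to 504 CPM in mural-like wells and had 0 counts in the endothelial-like wells of these mice, which makes it at least 5224-fold higher if 3 counts in all are taken as the floor (edgeR adjusted p = 0.0028). Col1a2 ran from 42.5 through 208 to 500 CPM in mural-like wells, against 0 through 0 to 4.32 CPM in endothelial-like wells (486-fold, 307 to 821; edgeR adjusted p = 0.0014). Without mouse 4 the Col1a2 fold was 302, and without mouse 8, which left 1 of 18 endothelial-like counts, the ratio was 7620 (1367 to 301000). None of these 3 overlapped between the classes. Fibroblast markers were also in mural-like wells, where Slc6a13 was found in 31 and Igf2 in 41 of 82 wells at 10 counts or more, 4 of 17 fibroblast markers were found in at least 25% of wells and the defining marker Pdgfra had 1 count. The summed fibroblast markers ran from 0 through 1064 to 5989 CPM per mural-like well, and 0 through 0 to 732.8 CPM per endothelial-like well. Their part in these differences was not tested.

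The inhibitors went different ways. Timp3 averaged 256 ± 188 CPM in mural-like and 1077 ± 330 CPM in endothelial-like wells, with no overlap and 7 of 7 mice lower in mural-like wells, but the log2 difference of -2.50 did not pass the test (edgeR adjusted p = 0.217). Mgp averaged 483 ± 222 CPM in mural-like and 173 ± 405 CPM in endothelial-like wells, and the endothelial-like value came mostly from scrambled mouse 3 at 1091 CPM, with 0 to 46.0 CPM in the other 6 mice. Serpinh1, the chaperone of collagen folding, averaged 134 ± 138 CPM in mural-like and 51.1 ± 46.3 CPM in endothelial-like wells and was not called. DESeq2 called 9 members higher, adding Lamc1 and Mgp, and 3 lower, adding Timp3 and Lama5. Of all 6780 genes DESeq2 called 867 higher and 870 lower, and the share of members lower lay near that of all genes. With at least 10 wells per class, which left 4 mice, 3 were called higher (Lamb1, Pcolce and Bgn) and 1 lower (Fn1), while Lama2 had an adjusted p of 0.0697 and Vtn of 0.0662. Of all 7689 genes tested there, 55 were higher and 81 lower. Without the wells that held markers of both classes, an alternative chosen after the data had been seen, 6 members were called higher and 1 lower in 6 mice. Of all 6632 genes, 222 were then higher and 272 lower.

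Of 137 related matrix genes, a list drawn up with results of these data known, 59 were tested between mural-like and endothelial-like wells. Of these, 11 were higher and 4 lower, against 4.14% of all genes tested higher and 4.62% lower, and the share lower lay near that of all genes. The syndecan Sdc2, a cell surface heparan sulfate proteoglycan, averaged 788 ± 138 CPM in mural-like and 0.0363 CPM in endothelial-like wells. The laminin receptor chains split, with Itga7 at 464 ± 211 CPM in mural-like and 5.10 ± 13.4 CPM in endothelial-like wells, and Itga6 at 0 in mural-like and 319 ± 158 CPM in endothelial-like wells. Of the small leucine-rich proteoglycans, Prelp averaged 629 ± 253 CPM in mural-like and 2.35 CPM in endothelial-like wells, and Aspn 404 ± 212 and 1.92 CPM. Ltbp4, which holds latent TGF-β in the matrix, averaged 42.2 ± 47.2 CPM in mural-like and 826 ± 342 CPM in endothelial-like wells, and the TGF-β coreceptor Eng 744 ± 283 and 2622 ± 985 CPM. The laminin chain Lamc3 (315 ± 228 in mural-like and 13.1 ± 20.2 CPM in endothelial-like wells) and the collagen Col27a1 (51.0 ± 27.8 and 0.116 CPM) were higher in mural-like wells, whereas 0 of 13 collagen synthesis enzymes and 0 of 8 proteases and inhibitors were called by edgeR, with the smallest adjusted p for Fkbp10 at 0.154 and Adamts1 at 0.197.

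Within the 82 mural-like wells Vtn varied with the kind of mural cell. Its log2(CPM + 1) had a Pearson r of 0.72 with the summed pericyte markers and of -0.58 with the summed smooth muscle markers across wells. Within single mice the first r ran from -0.01 to 0.91 and was above 0 in 7 of 8 mice, and the second ran from -0.82 to -0.14. Timp3 ran the other way, with r of -0.40 and 0.43, although within mice its r with smooth muscle markers was above 0 in only 4 of 8. In 4 of the 82 wells Vtn had no count, and these had 6.74 to 4850 CPM of pericyte markers and 36700 to 50130 CPM of smooth muscle markers, against medians of 10720 and 1.93 CPM in the other 78 wells. Without those 4 wells r was 0.59 and -0.49. The wells of a mouse share a library preparation, and all values of a well share its total, so these are descriptions with no test.

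**Figure D3:**
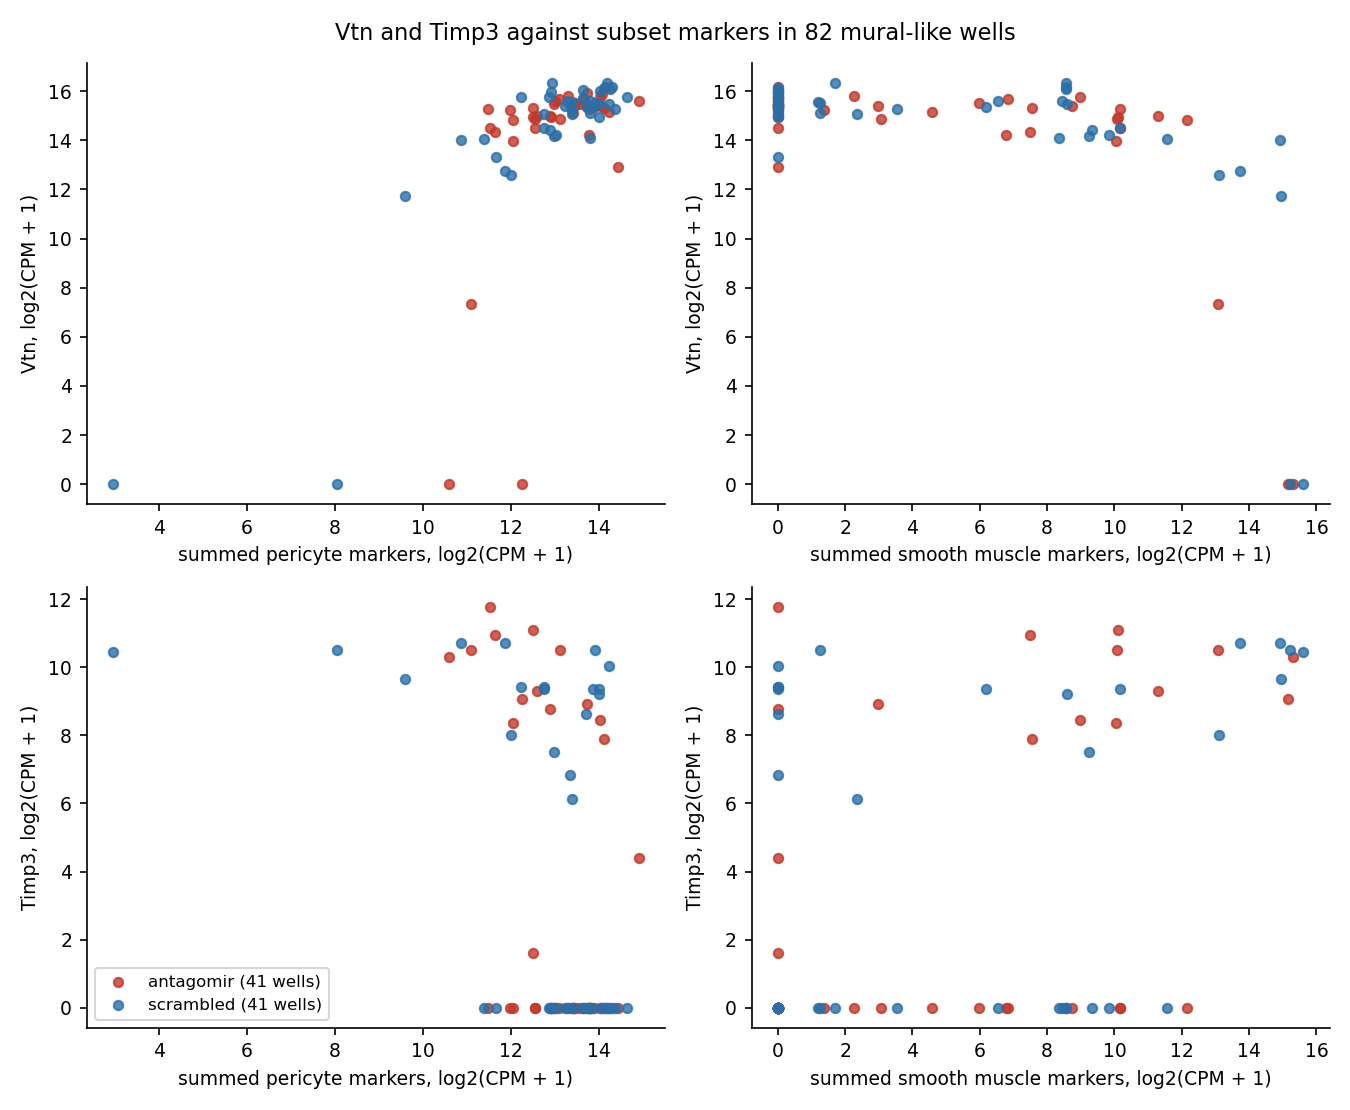
Vtn (upper panels) and Timp3 (lower panels) as log2(CPM + 1) against the summed pericyte markers (left) and smooth muscle markers (right) on the same scale, for 82 mural-like wells, 41 from antagomir and 41 from scrambled mice. Vtn climbs with pericyte markers and is lowest in the wells richest in smooth muscle markers, Timp3 leans the other way with wide scatter, and wells of both treatments lie among each other.

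The 2 type IV chains, which are made from neighbouring start sites and assemble into the same trimer, did not follow each other closely from well to well. Their r across wells was 0.28 in mural-like wells, rank 4 of the 153 pairs of members compared there, and 0.17 in endothelial-like wells, rank 14 of 55 pairs. Per length the pooled levels were 81.0 CPM per kb for Col4a1 and 65.9 for Col4a2 in mural-like wells, and 57.4 and 60.4 in endothelial-like wells. The pair with the highest r in mural-like wells was Lamb2 and Hspg2, at 0.41. Weak correlations in sparse counts are no finding.

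Vascular wells, mural-like and endothelial-like together, were then set against glial wells, astrocyte-like and oligodendrocyte-like together, in all 8 mice. Nearly all basement membrane genes that could be tested were higher in the pooled vascular wells: both type IV chains, all 6 laminin chains, Nid1, Hspg2 and Agrn. For Lama2 and Lamb1 this came from the mural-like wells. In the 7 mice compared above, endothelial-like wells averaged 1.85 CPM of Lama2, below the 85.9 CPM of glial wells, and had 1 count of Lamb1. Of 23 members tested, 21 were higher and 0 were lower by edgeR's quasi-likelihood test, against 7.81% of 11355 genes higher and 16.6% lower. The median log2 difference was 10.06 over the 23 members and -1.04 over all genes. Members with few glial counts, such as Lamb1 with 0, Col1a2 with 7 and Nid1 with 38 over all glial wells, passed the filter on low counts through the vascular wells, which fixes their direction, so the count and the median are descriptions. Nid2 (log2 0.71) and Fbln1 (0.24) were not called, and 12 members did not pass the filter on low counts. In the same test 21 members had an unadjusted p under 0.05, as had 1132 higher and 2781 lower of the 11355 genes.

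Vtn ran from 10410 through a median of 19280 to 30840 CPM in vascular wells, against 0.193 through 0.310 to 0.743 CPM in glial wells (51640-fold pooled, counting interval 43220 to 62230). Col4a1 ran from 255 through 518 to 703 CPM in vascular wells, against 0 through 0.230 to 6.25 CPM in glial wells (282-fold, 260 to 306; edgeR adjusted p = 0.0002). Col4a2 ran from 291 through 398 to 506 CPM in vascular wells, against 0.0860 through 2.73 to 9.17 CPM in glial wells (125-fold, 118 to 133; edgeR adjusted p = 0.0004). None of these ranges overlapped, and each gene was higher in vascular wells in 8 of 8 mice. Without mouse 7 the Col4a1 fold was 583.5.

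Nid1 ran from 69.2 through 423 to 803 CPM in vascular wells, against 0 through 0 to 0.808 CPM in glial wells (3784-fold). Fn1 ran from 339 through 596 to 1009 CPM in vascular wells, against 0 through 0.0433 to 3.21 CPM in glial wells (1055-fold), and Mgp from 113 through 273 to 704 CPM, against 0 through 0.0231 to 16.3 CPM (252-fold). Lamb1 ran from 1.76 through 67.0 to 234 CPM in vascular wells and was at 0 in glial wells, so that it was at least 9895-fold higher. These 4 genes did not overlap between the classes. The glial counts behind the first 3 folds came mostly from 1 mouse each. Without mouse 3 the Nid1 ratio was 134800 (24200 to 5326000, with 1 glial count left), without mouse 7 the Fn1 fold was 11180, and without mouse 6 the Mgp fold was 13780.

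Other members were shared with glia. Sparc averaged 2939 ± 585 CPM in vascular and 196 ± 95.6 CPM in glial wells (log2 3.81), Timp3 691 ± 266 and 114 ± 70.5 CPM (2.51) and Agrn 214 ± 124 and 43.9 ± 18.8 CPM (1.92). Lama2 had the smallest difference that was called, with 245 ± 144 CPM in vascular and 85.9 ± 41.6 CPM in glial wells (log2 1.22, edgeR adjusted p = 0.0208), and its ranges overlapped although 8 of 8 mice were higher in vascular wells. The call on Lama2 was lost without mouse 3 and when wells were named one by one. Agrn also overlapped between the classes.

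The glial classes themselves differed in which matrix genes they carried, and the astrocyte-like wells had more of most of them. Of 9 members tested between astrocyte-like and oligodendrocyte-like wells in 8 mice, 7 were higher and 0 lower by edgeR, against 12.1% of 10557 genes higher and 14.1% lower (median of all genes -0.44 on the log2 scale). The 7 were Fbln1, Lamb2, Loxl1, Serpinh1, Timp3, Sparc and Lama2. An unadjusted p under 0.05 was found for 7 members, and for 1636 higher and 2165 lower of the 10557 genes. Here too a gene could pass the filter through 1 class alone, which fixes its direction. DESeq2 called the same number higher and 1 lower, Lamc1, for which edgeR gave a log2 difference of -3.11 and an adjusted p of 0.165. Of all 10557 genes DESeq2 called 2069 higher and 2665 lower.

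Fbln1 ran from 3.50 through 71.5 to 166 CPM in astrocyte-like wells, against 0 through 0 to 0.0954 CPM in oligodendrocyte-like wells. Lamb2 ran from 14.2 through 38.7 to 181 CPM in astrocyte-like wells, against 0 through 0.0130 to 3.01 CPM in oligodendrocyte-like wells. Timp3 ran from 175 through 321 to 512 CPM in astrocyte-like wells, against 0.0477 through 13.2 to 17.4 CPM in oligodendrocyte-like wells (log2 5.41). These 3 did not overlap. Loxl1, a lysyl oxidase that cross-links elastic fibres, ran from 0 through 14.8 to 124 CPM in astrocyte-like wells, against 0 through 0 to 3.74 CPM in oligodendrocyte-like wells, overlapped, and was higher in astrocyte-like wells in 7 mice. Serpinh1 ran from 8.34 through 14.5 to 72.2 CPM in astrocyte-like wells, against 0 through 0.105 to 1.75 CPM in oligodendrocyte-like wells (log2 6.89, edgeR adjusted p = 0.0077), Sparc was 3.23 and Lama2 2.48 higher on the log2 scale, and Agrn (log2 0.08) was not called.

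The antagomir was compared with the scrambled oligonucleotide first in all kept wells of each mouse. No matrix gene passed the test in any of the 6 comparisons made. In all wells, 0 of 33 members tested were called, with 0% of 15447 genes called higher and 0% called lower by edgeR, while 148 genes had an unadjusted p under 0.05 and were higher and 132 were lower. Among the members 1 had an unadjusted p under 0.05. DESeq2 called 10 genes in all wells, 0 of them members, and limma called 0. The log2 difference was above 0 for 20 members and below 0 for 13, with a median of 0.33 over the members and 0.00 over all genes. In wells pooled over cell classes, fewer cells of a type and less RNA per cell cannot be told apart. Mural-like wells made up 11.6% ± 4.10 of the kept wells in antagomir mice and 11.2% ± 3.18 in scrambled mice (exact two-sided permutation p = 0.886), endothelial-like wells 11.6% ± 5.61 and 12.5% ± 7.02 (exact p = 0.8286), and fibroblast-like wells 1.97% ± 1.04 and 1.38% ± 1.07 (exact p = 0.371; SD, n = 4 mice each).

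**Figure D4:**
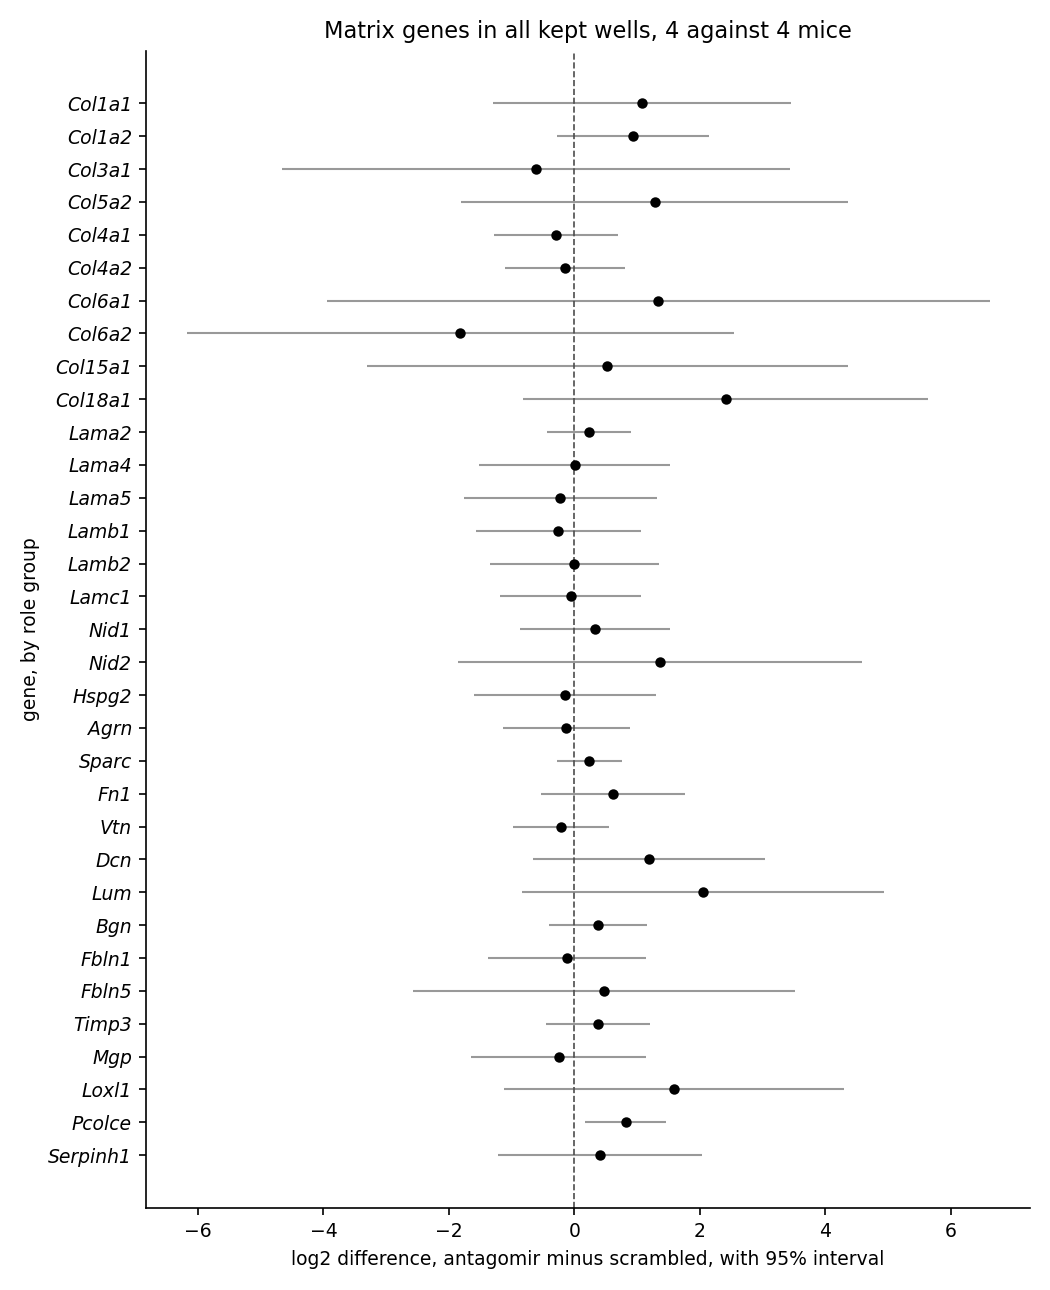
Log2 difference of antagomir minus scrambled mice in all kept wells for 33 members (4 mice each), with points at the edgeR estimate and bars for the 95% interval. Every interval but that of Pcolce spans 0, and the interval is narrowest for Sparc.

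Pcolce had the smallest p of the members in all wells. It had 80.0, 113, 81.9 and 47.9 CPM in antagomir mice 2, 4, 6 and 8, against 53.2, 49.7, 42.6 and 33.2 CPM in scrambled mice 1, 3, 5 and 7. Antagomir mouse 8 lay inside the range of the scrambled mice, and the other 3 lay above it. The log2 difference was 0.82 (edgeR adjusted p = 1.00), and -0.02 with limma on mean log2(CPM + 1) over wells. Its log2 difference was 0.15 in mural-like wells and 0.06 in vascular wells, and its highest level was in the fibroblast-like wells, of which mice 2, 4, 6 and 8 had 2, 3, 1 and 1, and mice 1, 3, 5 and 7 had 2, 1, 0 and 2. Col1a2, also highest in fibroblast-like wells, had 61.2, 74.3, 14.9 and 24.6 CPM in antagomir mice, against 31.9, 10.9, 24.3 and 22.3 CPM in scrambled mice, and overlapped (log2 0.93).

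The 3 genes with a seed match for miR-132 were not called. Col1a1 had 30.8, 25.5, 13.5 and 26.7 CPM in antagomir mice 2, 4, 6 and 8, against 26.8, 13.8, 0.0833 and 4.97 CPM in scrambled mice 1, 3, 5 and 7 (log2 1.08, 95% interval -1.30 to 3.45). Col5a2 had 3.00, 3.65, 7.36 and 0.399 CPM in antagomir mice, against 0.651, 0.0804, 0.375 and 4.54 CPM in scrambled mice (log2 1.28, interval -1.81 to 4.36). Nid1 had 135, 141, 116 and 36.7 CPM in antagomir mice, against 158, 44.5, 97.8 and 31.5 CPM in scrambled mice (log2 0.33, interval -0.87 to 1.53). All 3 estimates lay above 0, all 3 genes overlapped between the treatments, and every interval spans 0.

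Within mural-like wells 0 of 23 members tested were called (0% of 6788 genes higher and 0% lower; 24 genes up and 37 down with p under 0.05 unadjusted, 0 of them members; DESeq2 called 22 genes, 0 of them members, and limma 0). Vtn, the most abundant of these transcripts, had 41680, 42600, 32950 and 46210 CPM in antagomir mice 2, 4, 6 and 8, against 32390, 37400, 56680 and 39260 CPM in scrambled mice 1, 3, 5 and 7. Its log2 difference was -0.04 with a 95% interval of -0.43 to 0.35, the narrowest interval of the members in this class. Col4a1 had 647, 386, 620 and 454 CPM in antagomir mice, against 632, 544, 822 and 721 CPM in scrambled mice (log2 -0.36), and overlapped. Col4a2 had 199, 376, 415 and 435 CPM in antagomir mice, against 654, 525, 263 and 476 CPM in scrambled mice (log2 -0.46), and also overlapped.

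Of the members with estimates above 0 in mural-like wells, Col5a2 and Col1a2 had the smallest p, and Col18a1 (log2 2.41) and Lama5 (1.34) lay between their estimates. Col5a2 had 1.53, 34.4, 45.1 and 7.02 CPM in antagomir mice 2, 4, 6 and 8, against 4.69, 0, 2.43 and 0.236 CPM in scrambled mice 1, 3, 5 and 7 (log2 3.48). Col1a2 had 208, 500, 42.5 and 335 CPM in antagomir mice, against 90.8, 63.4, 218 and 167 CPM in scrambled mice (log2 0.97). Both overlapped between the treatments. Mgp had 613, 552, 861 and 238 CPM in antagomir mice and 519, 312, 282 and 1023 CPM in scrambled mice, while its share of mural-like wells with a count was 32.7% ± 17.9 and 56.6% ± 11.6 (exact two-sided permutation p = 0.0571, n = 4 each). Median counts per mural-like well were 572317, 383636, 477543 and 268051 in antagomir mice 2, 4, 6 and 8. In scrambled mice 1, 3, 5 and 7 they were 619155, 655397.5, 412997 and 759656. The part of depth in this share was not tested.

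Within endothelial-like wells mouse 7, with 3 such wells, was left out, and 0 of 17 members were called in 4 antagomir against 3 scrambled mice (0% of 7720 genes higher and 0% lower; 83 up and 80 down with p under 0.05 unadjusted, 1 of them a member). DESeq2 called 66 genes, Vtn among them as lower, and limma called 0. Sparc had 3052, 2813, 2930 and 3934 CPM in antagomir mice 2, 4, 6 and 8, against 2428, 2634 and 1994 CPM in scrambled mice 1, 3 and 5, with no overlap (log2 0.35, edgeR adjusted p = 1.00), but the 3 wells of scrambled mouse 7 had 4565 CPM. Fn1 had 1345, 1168, 1680 and 1409 CPM in antagomir mice, against 1169, 736 and 752 CPM in scrambled mice and 1567 CPM in the 3 wells of scrambled mouse 7 (log2 0.55). The treatments overlapped for Fn1, and Sparc overlapped once mouse 7 was counted.

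In endothelial-like wells Vtn rested mostly on scrambled mice 5 and 1, and Mgp on scrambled mouse 3. Vtn had 0.170, 0, 2.88 and 0.508 CPM in antagomir mice 2, 4, 6 and 8, against 116, 1.76 and 1418 CPM in scrambled mice 1, 3 and 5 (edgeR adjusted p = 1.00; DESeq2 adjusted p = 3.56e-05). Vtn was the 1 member that met the unadjusted limit of edgeR given above. Without mouse 5 Vtn was tested again, and no member met that limit. Without mouse 6 Vtn was not among the 16 members tested, so that fit says nothing about Vtn. None of those 16 members met the limit. Only 4 endothelial-like wells held 10 or more counts of Vtn, of which the well of mouse 5 with 6017 counts also held 11 of 17 mural markers, another of mouse 5 with 642 counts held 4, that of mouse 1 with 1299 counts held 1 and that of mouse 6 with 15 counts held 0. Mgp had 34.6, 0, 0 and 40.9 CPM in antagomir mice, against 0, 1091 and 46.0 CPM in scrambled mice (log2 -4.23), where 1 mouse set the scrambled level.

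In mural-like and endothelial-like wells together 0 of 25 members were called (0% of 9300 genes higher and 0% lower; 34 up and 43 down with p under 0.05 unadjusted, 0 of them members; DESeq2 called 9 genes, 0 of them members, and limma 0). Col4a1 had 431, 255, 557 and 485 CPM in antagomir mice 2, 4, 6 and 8, against 703, 435, 570 and 551 CPM in scrambled mice 1, 3, 5 and 7 (log2 -0.36, interval -1.18 to 0.47). Col4a2 had 383, 394, 402 and 291 CPM in antagomir mice, against 506, 456, 430 and 328 CPM in scrambled mice (log2 -0.21). Both chains overlapped between the treatments, with 11 of the 25 members above and 14 below 0 and a median of -0.11, against 0.05 over all genes. Fn1 had 1009, 452, 744 and 893 CPM in antagomir mice, against 702, 339, 352 and 489 CPM in scrambled mice (log2 0.75, edgeR adjusted p = 1.00). Fn1 was almost absent from mural-like wells. Antagomir mice 2, 4, 6 and 8 had 17, 5, 11 and 8 endothelial-like and 7, 13, 14 and 7 mural-like wells. Scrambled mice 1, 3, 5 and 7 had 19, 13, 11 and 3 endothelial-like and 13, 10, 12 and 6 mural-like wells. The mix of classes and the level per cell cannot be told apart in these pooled wells.

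**Figure D5:**
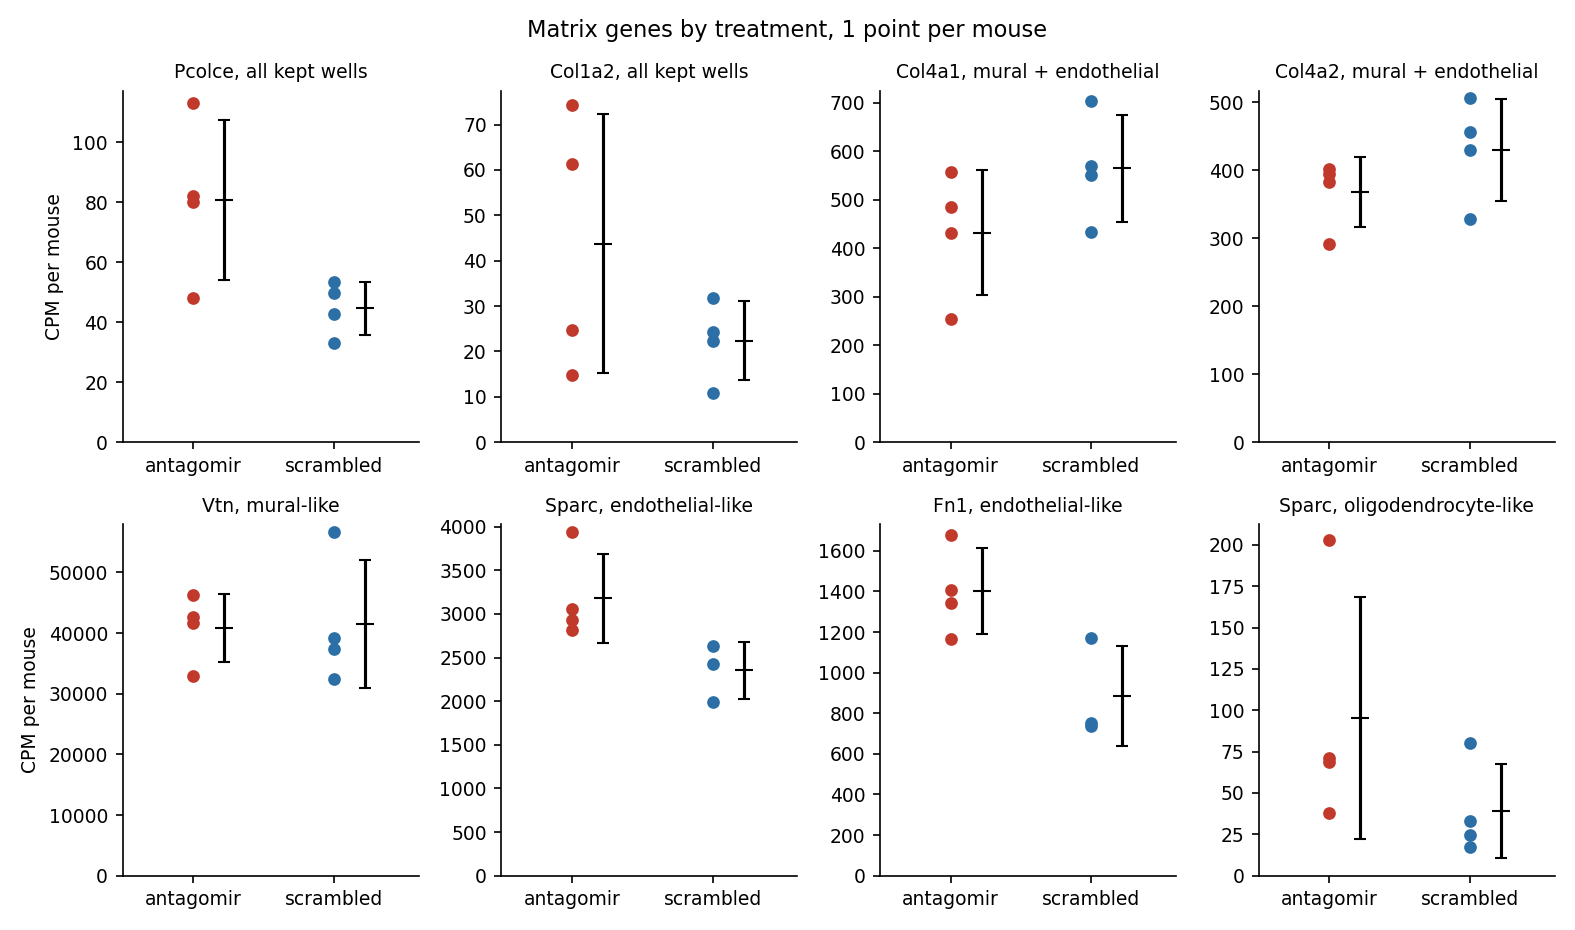
CPM per mouse with antagomir mice at the left and scrambled mice at the right of each panel and bars for mean ± SD, for Pcolce and Col1a2 in all wells, Col4a1 and Col4a2 in vascular wells, Vtn in mural-like wells, Sparc and Fn1 in endothelial-like wells and Sparc in oligodendrocyte-like wells. The 2 treatments overlap in every panel but that of Sparc in endothelial-like wells, where mouse 7 is left out.

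In oligodendrocyte-like wells 0 of 5 members were called (0% of 10778 genes higher and 0% lower; 92 up and 122 down with p under 0.05 unadjusted, 0 of them members; DESeq2 called 13 genes, 0 of them members, and limma 0). Sparc had 38.1, 68.9, 203 and 71.3 CPM in antagomir mice 2, 4, 6 and 8, against 17.5, 24.5, 33.0 and 80.4 CPM in scrambled mice 1, 3, 5 and 7. Scrambled mouse 7 lay above 3 of the 4 antagomir mice (log2 1.30, edgeR adjusted p = 1.00).

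In astrocyte-like wells 0 of 12 members were called (0% of 10090 genes higher and 0% lower; 93 up and 66 down with p under 0.05 unadjusted, 0 of them members; DESeq2 called 8 genes, 0 of them members, and limma 0). Col1a1 had 47.3, 17.3, 58.7 and 17.1 CPM in antagomir mice 2, 4, 6 and 8, against 0.326, 32.0, 0 and 0 CPM in scrambled mice 1, 3, 5 and 7 (log2 2.17, edgeR adjusted p = 1.00). Scrambled mouse 3 lay inside the range of the antagomir mice. Loxl1 had 124, 2.11, 11.7 and 17.99 CPM in antagomir mice, against 20.3, 1.61, 0 and 25.8 CPM in scrambled mice (log2 1.69), and overlapped.

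The share of wells with a count was also compared, since a level can rest on few wells. Agrn was counted in 26.5% ± 9.84 of vascular wells in antagomir mice and in 45.7% ± 2.03 in scrambled mice (SD, n = 4 each; exact two-sided permutation p = 0.0286, the smallest that 4 against 4 allows). In endothelial-like wells the shares were 32.3% ± 8.24 (n = 4) and 58.5% ± 4.92 (n = 3; exact p = 0.0571, the smallest that this design allows). None of the 131 gene and class combinations compared passed after Benjamini-Hochberg adjustment, where every adjusted p was 1. This outcome was largely set by the design. With 4 against 3 mice the smallest exact permutation p of 0.0571 lies above the limit for a call, so no endothelial-like share could pass. With 4 against 4 mice many genes would have to reach the smallest exact permutation p of 0.0286 at once. The absence of calls therefore does not show equal shares. The level of Agrn in vascular wells was 251, 38.2, 304 and 62.7 CPM in antagomir mice, against 187, 293, 172 and 402 CPM in scrambled mice, and overlapped.

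Whether the treatment difference itself differed between mural-like and endothelial-like wells was tested with an interaction term in edgeR. Of 26 members 1 passed, Vtn, with a difference of 7.88 on the log2 scale (adjusted p = 0.0118), and of 10376 genes 3 passed. Without the wells that held markers of both classes the Vtn term was 2.41 (adjusted p = 0.329), and 0 of 25 members and 5 of 9777 genes passed, with 2 members at an unadjusted p under 0.05.

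How small a difference could be seen was set by the spread between mice. Over the members tested, the 95% interval of the log2 difference reached to either side by a median of 1.39 in all wells, 1.83 in mural-like, 2.25 in endothelial-like, 1.45 in vascular, 1.31 in oligodendrocyte-like and 2.90 in astrocyte-like wells. The reach was smallest for Sparc in all wells (0.52) and for Vtn in mural-like wells (0.39). These are widths of single intervals without adjustment, and a call after adjustment over all genes needed more. Pcolce in all wells (log2 0.82, interval 0.18 to 1.46) had an interval that left out 0 and was not called. The same held for Vtn in endothelial-like wells (log2 -9.23, interval -13.71 to -4.75). The widths are therefore not the smallest difference that could be called, and the absence of calls does not show equal levels.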

How the data were processed

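The data are Smart-seq2 counts of nestin-GFP-positive cells, and the members and gene lists were chosen with earlier results of these data known. The authors deposited raw counts per gene symbol and well, and a table of the mouse, treatment, sort day and pool of each well. Per the submitters' processing notes, FastQC, STAR 2.5.2, featureCounts 1.5.1 of Subread, Seurat 2.3.1 and build mm10 were used. The sources used here give neither the annotation nor the strand setting, so reads of overlapping antisense genes cannot be told apart. Counts were used as deposited.

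Wells with 500 to 6000 detected genes were clustered with scanpy 1.11.5 (2000 variable genes without the members and related matrix genes, 20 components, 15 neighbours, Leiden resolution 1). A cluster was named where 3 or more markers were detected in 25% of its wells. Counts were summed per mouse and class, for mice with at least 5 wells, and tested with edgeR 4.0.16 in R 4.3.3 (filterByExpr, TMM, quasi-likelihood test, Benjamini-Hochberg adjustment over all genes tested), with the mouse as a block between classes and no covariate between treatments. The code was tested on simulated data. DESeq2 1.42.0, limma 3.58.1 on log2(CPM + 1), other limits and left-out mice were alternatives. Shares were compared with exact permutation tests over mice. Per-length levels used the union of exons in GENCODE M21. Genes were named by rule: Col4a1 and Col4a2, the called members with the largest differences (up to 5 per direction and class comparison), the 2 with the smallest p per direction in each treatment comparison, and the 5 highest per length in each class. The other genes that are named, among them the 3 with a seed match, Agrn shares and Col1a1 in glia, were chosen after their values were seen. No table was left out, and mice were taken as separate animals, so p-values measure the spread between mice.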

Additional observations from a re-analysis of the deposited data

Results flagged for a closer look

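In astrocyte-like wells Col1a1 had 32.02 CPM in scrambled mouse 3, against 0, 0 and 0.3256 CPM in the other 3 scrambled mice, a gap of 0.99 of the group's range. In the same class Loxl1 had 124.3 CPM in antagomir mouse 2, against 2.107, 11.69 and 17.99 CPM in the other 3 antagomir mice, a gap of 0.87 of the range. These were 2 of 52 groups of 4 mice examined, and chance alone would single out about 1 in 20 groups. The treatment difference of Vtn differed between mural-like and endothelial-like wells by 7.875 on the log2 scale (edgeR interaction, adjusted p = 0.0118). Without the wells that held markers of both classes it was 2.41 (adjusted p = 0.329), and the 4 endothelial-like wells with 10 or more Vtn counts held 0 to 11 of 17 mural markers.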

How the results depend on the processing

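Between classes, the mural-like minus endothelial-like count of members higher was 7, and 3 with at least 10 wells per mouse. The count lower was 1, and 3 with DESeq2, 4 with limma and 2 without a filter on low counts. Over all genes, 870 of 6780 were lower with DESeq2, 730 of 6780 with limma and 460 of about 21120 without the filter. Genes called in all in that comparison numbered 1737 with DESeq2, 1356 with limma and 136 with at least 10 wells per mouse. For vascular minus glial wells, 1 member (Loxl1) was called lower when wells were named one by one and 2 (Loxl1 and Col1a1) without the filter, against 0. Over all genes, 1902 of about 11330 were lower with wells named one by one and 1924 of about 29740 without the filter. Leaving out each mouse gave 0 to 1 members lower (Loxl1, without mouse 3 or mouse 5). Over all genes, 1693 were lower without mouse 3 and 1741 without mouse 5. All genes called there were 5594 with DESeq2 and 6045 with limma, and the split of higher to lower was 887 to 1884, against 1082 to 1336 without the replicate block and 1311 to 4734 with limma. For astrocyte-like minus oligodendrocyte-like wells, DESeq2 called 1 member lower, and all genes called were 4734 with DESeq2 and 5324 with limma (1887 higher and 3437 lower, against 1277 and 1489). Col4a2 in mural-like minus endothelial-like wells turned from -0.06 to 0.0057 with DESeq2, 0.42 with at least 3 wells and 0.19 with limma, and ran from -0.24 to 0.19 with each mouse left out.

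Between treatments, the replicate block, which paired mice by sort day and pool, called 0 members in every comparison. Deviations of paired mice, which share a sort day and a pool, correlated at -0.003 to 0.147. In sparse counts a low r does not show that day or pool had no effect. DESeq2 called 10 genes in all wells, 22 in mural-like, 66 in endothelial-like, 9 in vascular, 13 in oligodendrocyte-like and 8 in astrocyte-like wells. Without the filter 4 genes were called in mural-like, 6 in endothelial-like and 1 in vascular wells. In endothelial-like wells 1 member was called lower with DESeq2, without the filter, within day 2 (Vtn, 4 genes in all) and within pool L6 (Mgp, 6 genes in all), where the scrambled group of each batch held 1 mouse that is assumed to vary like the others. The Vtn treatment difference in endothelial-like wells could not be tested without wells of both classes, since it failed the filter, and the mural-like and endothelial-like treatment comparisons gave no value with at least 10 wells per mouse. Shares of wells with a count moved to 4.60% for Vtn in endothelial-like and 91.5% for Sparc in mural-like wells at 10 counts or more.

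Treatment differences that no test called changed sign as follows, on the log2 scale. In all wells Col1a2 was -0.26 and Col4a1 0.30 within day 2, Col4a2 was 0.002403 with the replicate block, 0.008284 with day and pool as covariates, 0.34 within day 2 and 0.094 within pool L6, Col6a2 was 0.16 within day 1, and Pcolce was -0.0195 with limma. In mural-like wells Col1a2 was -0.0608 within day 2 and -0.36 within pool L5, and Col4a2 was 0.33 within day 2. In endothelial-like wells Col4a1 was 0.73 within day 2, Col4a2 0.0482 within day 1 and Fn1 -0.45 with limma. In vascular wells Col4a2 was 0.0471 and Fn1 -0.23 with limma, Vtn was 0.0639 within day 1 and Mgp 0.75 within pool L5. In oligodendrocyte-like wells Lama2 was 0.0570 with wells named one by one, 0.008852 with covariates, 0.66 within day 2 and 0.50 within pool L6, and Agrn was -0.0485 with limma. In astrocyte-like wells Col4a2 was -1.06 with wells named one by one, -0.18 with limma, -0.38 with the replicate block, -0.44 with covariates, -6.12 within day 2 and -0.15 within pool L6, Lamc1 was 1.07 within day 1, and Loxl1 was -0.49 within pool L6. With each mouse left out, Col4a1 ran from -0.62 to 0.11, Col4a2 from -0.44 to 0.22 and Col6a2 from -2.47 to 0.40 in all wells, Col4a1 from -0.74 to 0.25 in endothelial-like, Lama2 from -0.30 to 0.21 in oligodendrocyte-like, and Col4a2 from -0.14 to 1.71 and Loxl1 from -0.19 to 2.39 in astrocyte-like wells. The treatment difference in shares ran from -1.11 to 1.6 percentage points for mural-like and from -3.97 to 1.69 for endothelial-like wells. The cause of these changes was not tested. Of the other values, 728 of single genes kept direction and call under alternatives that left in every mouse, and 363 with a mouse left out. Part of the 728 only repeat the main fit. The other Leiden resolutions left the mural-like and endothelial-like wells unchanged. In all kept wells, naming wells one by one and other limits on wells per mouse changed nothing either. Agreement there is no separate support. The number of mice, the number of vascular wells per mouse and the depth per well all limit precision, and their parts were not separated.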

Other observations

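Collagen I chains were counted apart from each other outside the fibroblast-like wells. In astrocyte-like wells Col1a1 had 1790 counts (19.4 CPM), found at 10 counts or more in 5.92% of 169 wells, while Col1a2 and Col3a1 had 1 count each. In mural-like wells the reverse held, with Col1a2 at 185 CPM in 26.8% of 82 wells and Col1a1 at 1 count in all. These values come from deposited counts whose strand setting is not given, and were not tested.

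Neuroblast-like wells, in which 21 of the 35 genes were at 0, had Fbln1 at 321 CPM and in 36.0% of 25 wells, Agrn at 90.5 CPM in 28.0%, Lama2 at 130 CPM in 24.0% and Lamb1 at 58.9 CPM in 16.0%. With 1 to 5 such wells per mouse, treatments were not compared in them. The 39 unnamed wells had Lama2 in 69.2%, Timp3 in 61.5% and Sparc in 59.0% of wells, at 276, 270 and 1190 CPM.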
